A study of Homo sapiens with 2 samples.

Results

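The 10 genes described here encode molecular chaperones. The list holds 7 chaperones of the cytosol and nucleus (HSP90AA1, HSP90AB1, HSPA1A, HSPA1B, HSPA8, DNAJB1 and HSPH1) and 3 chaperones of the endoplasmic reticulum, or ER (HSP90B1, HSPA5 and CALR). They were chosen by name and not by a measured value, but with earlier results of these data known. They are 10 of the 20037 protein-coding genes of the RefSeq annotation of GRCh38. The study asked which genes are targets of RUNX2, a DNA-binding transcription factor, and of MTA1, which belongs to the NuRD complex that remodels chromatin and removes acetyl groups from histones. Binding was profiled by CUT&Tag, in which an antibody directs a transposase to cut the DNA around its target, in MDA-MB-231 cells, an established triple-negative breast cancer line. There was 1 library with an antibody against RUNX2 and 1 with an antibody against MTA1. For the cells of both, the labels give no genetic change, no treatment and a culture without CO2, whereas the study's methods describe an incubator with CO2. For both antibodies the supplier in the labels is not the one in the study's methods, and the labels describe adaptor ligation to precipitated DNA rather than tagmentation, so the product and the library preparation behind each list are uncertain.

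The RUNX2 list held 61700 peaks on chromosomes 1 to 22, X and Y, and the MTA1 list held 42683. Their median widths were 151 and 185 bp. Each peak carries a score whose scale was not given, so a peak is described by its score percentile, the percentage of peaks of its own list with a lower score. With 1 library per antibody and no control library analysed here, no difference was tested, and the number of reads behind each peak is unknown. A gene without a peak may have had no signal or a signal under the threshold of the list. Exact 95% binomial (Clopper-Pearson) intervals are given for the shares of members. They cover counting error only, and genes are not replicates of a condition.

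Chaperones bind unfolded proteins, keep them from aggregating and help them to fold. In the cytosol, HSP70 proteins take up clients from J-domain proteins such as DNAJB1, exchange nucleotide with the help of HSP110 proteins such as HSPH1, and pass some clients on to HSP90. When unfolded proteins accumulate there, the factor HSF1 binds heat shock elements, which are arrays of inverted GAA units, and induces many of these genes. In the ER, HSPA5 (BiP), HSP90B1 (GRP94) and CALR (calreticulin) do comparable work on secreted and membrane proteins, and the unfolded protein response induces them through ER stress elements, which NF-Y and ATF6 bind. Tumour cells often carry high levels of both groups.

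Promoter sequences of both groups are shown first, since the peaks of both lists are described against them. They are the 250 bases before an annotated transcription start, 5′ to 3′ in the direction of the gene, from the RefSeq promoter table of GRCh38.p14, in which all 10 members had at least 1 start and 15 starts together. The first 3 belong to the ER members, HSPA5 at chr9:125241344-125241593 (minus strand), HSP90B1 at chr12:103930160-103930409 (plus strand) and CALR at chr19:12938359-12938608 (plus strand), and capitals mark every match to the ER stress element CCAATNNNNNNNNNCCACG on either strand.
HSPA5: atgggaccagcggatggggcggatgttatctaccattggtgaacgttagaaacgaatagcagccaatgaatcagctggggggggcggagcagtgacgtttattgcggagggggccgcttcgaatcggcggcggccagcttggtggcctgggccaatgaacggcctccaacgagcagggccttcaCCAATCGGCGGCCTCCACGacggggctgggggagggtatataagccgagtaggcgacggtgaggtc
HSP90B1: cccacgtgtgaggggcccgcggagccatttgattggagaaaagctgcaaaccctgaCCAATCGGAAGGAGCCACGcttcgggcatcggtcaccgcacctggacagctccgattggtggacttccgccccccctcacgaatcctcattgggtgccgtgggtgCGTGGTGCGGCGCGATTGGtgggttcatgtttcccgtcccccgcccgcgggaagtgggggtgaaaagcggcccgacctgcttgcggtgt
CALR: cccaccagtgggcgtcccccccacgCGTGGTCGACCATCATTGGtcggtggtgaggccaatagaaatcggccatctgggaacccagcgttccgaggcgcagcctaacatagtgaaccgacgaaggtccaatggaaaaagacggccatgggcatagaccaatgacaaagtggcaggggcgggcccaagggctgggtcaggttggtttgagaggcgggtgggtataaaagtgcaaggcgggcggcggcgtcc

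The next 3 belong to cytosolic members with heat shock units, HSPA8 at chr11:123062137-123062386, the start of HSP90AA1 nearer to the end of the gene at chr14:102087045-102087294, and the middle of the 3 starts of DNAJB1 at chr19:14518398-14518647, all on the minus strand. In HSPA8 and HSP90AA1, capitals mark matches to a heat shock element of 3 alternating units, GAANNTTCNNGAA, on either strand. In DNAJB1, which had no match to 3 units, they mark the matches to 2 facing units, GAANNTTC or TTCNNGAA. Each match to 3 units also holds matches to 2.
HSPA8: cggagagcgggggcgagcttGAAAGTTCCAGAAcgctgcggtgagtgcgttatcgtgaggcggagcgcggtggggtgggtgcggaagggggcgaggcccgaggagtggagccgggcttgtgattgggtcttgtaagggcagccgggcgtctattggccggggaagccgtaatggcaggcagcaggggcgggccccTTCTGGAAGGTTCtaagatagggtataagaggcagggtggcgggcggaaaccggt
HSP90AA1: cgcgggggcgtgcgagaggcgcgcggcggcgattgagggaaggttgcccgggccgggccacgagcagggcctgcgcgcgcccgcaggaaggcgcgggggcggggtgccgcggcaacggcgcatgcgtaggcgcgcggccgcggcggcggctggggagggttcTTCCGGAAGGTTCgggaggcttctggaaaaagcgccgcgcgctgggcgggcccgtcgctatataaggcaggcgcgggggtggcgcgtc
DNAJB1: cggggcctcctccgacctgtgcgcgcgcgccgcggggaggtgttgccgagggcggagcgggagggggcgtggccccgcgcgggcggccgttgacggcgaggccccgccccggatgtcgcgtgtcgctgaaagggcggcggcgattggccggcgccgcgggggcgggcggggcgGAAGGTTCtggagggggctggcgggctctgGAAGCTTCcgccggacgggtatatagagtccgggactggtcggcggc

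The last 2 are the promoters of HSPA1A at chr6:31815293-31815542 and HSPA1B at chr6:31827488-31827737, both on the plus strand, with the bases that differ between them in capitals. They are shown because these neighbouring genes encode near-identical HSP70 proteins and their promoters are almost the same sequence. Of 249 aligned bases, 235 were identical (94.4%) and 14 differed.
HSPA1A: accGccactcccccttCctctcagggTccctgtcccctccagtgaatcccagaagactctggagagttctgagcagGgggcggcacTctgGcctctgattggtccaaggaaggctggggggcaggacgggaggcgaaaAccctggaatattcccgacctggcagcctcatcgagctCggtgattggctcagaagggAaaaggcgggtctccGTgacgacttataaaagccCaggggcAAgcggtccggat
HSPA1B: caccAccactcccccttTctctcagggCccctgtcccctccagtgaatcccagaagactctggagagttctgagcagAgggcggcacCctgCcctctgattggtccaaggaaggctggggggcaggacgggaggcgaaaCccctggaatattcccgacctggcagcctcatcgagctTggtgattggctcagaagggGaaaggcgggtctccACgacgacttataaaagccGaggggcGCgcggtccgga

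All 3 ER members held the ER stress element in this stretch, and none of the 7 cytosolic members did at any of their starts. The ER members are known to be induced through this element, as described above, so their matches were foreseeable. HSP90B1 had 2 matches, at -194 to -176 and -89 to -71 from the start, HSPA5 had 1 at -66 to -48, and CALR had 1 at -225 to -207. This element is rare in promoters, with a match in 22 of 22199 windows of protein-coding genes (0.0991%). The heat shock element of 3 units was found at 3 of the 15 member starts, against 0.365% of all windows. These 3 belong to cytosolic HSP90 and HSP70 genes. Matches to 2 facing units were found at 6 of 15, against 10.0%. Among them were HSPA1A and HSPA1B, which had no match to 3 units. The CCAAT box, the NF-Y binding letters that the ER stress element contains, was present at 10 of 15 member starts, against 32.7% of all windows. The RUNX core TGTGGT was found at 0 of the 15 member starts on either strand, against 9.36% of all windows. Each motif was searched only as spelled here, so other forms of a RUNX site or a heat shock element may be present in these promoters. These are matches of letters only and say nothing about which factor occupied a promoter.

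Every member had peaks of both lists. A RUNX2 peak lay inside or within 10 kb of 10 of 10 members (exact interval 69.2 to 100%), against 79.2% of all protein-coding genes. An MTA1 peak did so at 10 of 10, against 75.0%, and an overlapping RUNX2 and MTA1 pair at 10 of 10, against 65.0%. Long genes have more room for a peak, so the same shares were taken over the 14581 protein-coding genes no longer than HSP90AA1, the longest member, and were 74.7% for RUNX2, 70.9% for MTA1 and 60.8% for the overlapping pair. All these background shares are high, so a peak within 10 kb says little about these genes. The members had 1 to 8 RUNX2 peaks each (median 4) and 1 to 7 MTA1 peaks (median 3.50), against medians of 2 and 2 over all protein-coding genes.

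The members stood further from the background at their promoters, in the window from 250 bases before to 50 bases after an annotated start. A RUNX2 peak covered part of such a window at 9 of 10 members, against 44.9% of the 15843 protein-coding genes with a window in the table. An MTA1 peak did so at 9 of 10, against 48.4%, and peaks of both lists over the same window were found at 9 of 10 (interval 55.5 to 99.7%), against 40.7%. HSPA1A was the exception. Both promoter peaks had a score percentile of at least 90 at 5 members, HSPA1B, HSPA8, DNAJB1, HSP90B1 and CALR (50% of 10, interval 18.7 to 81.3%), against 6.00% of all genes. As described below, DNAJB1 is counted only through a start close to starts of TECR, and the placing of reads at HSPA1B is uncertain. The members nearest to that limit were HSP90B1, at a RUNX2 percentile of 92.2, inside it, and HSPA5, at an MTA1 percentile of 85.1, outside it. Over the members with a promoter peak, the median percentile of the strongest one was 92.2 for RUNX2 and 97.1 for MTA1, against 73.5 over the 7106 genes and 77.7 over the 7668 genes with such a peak.

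**Figure D1:**
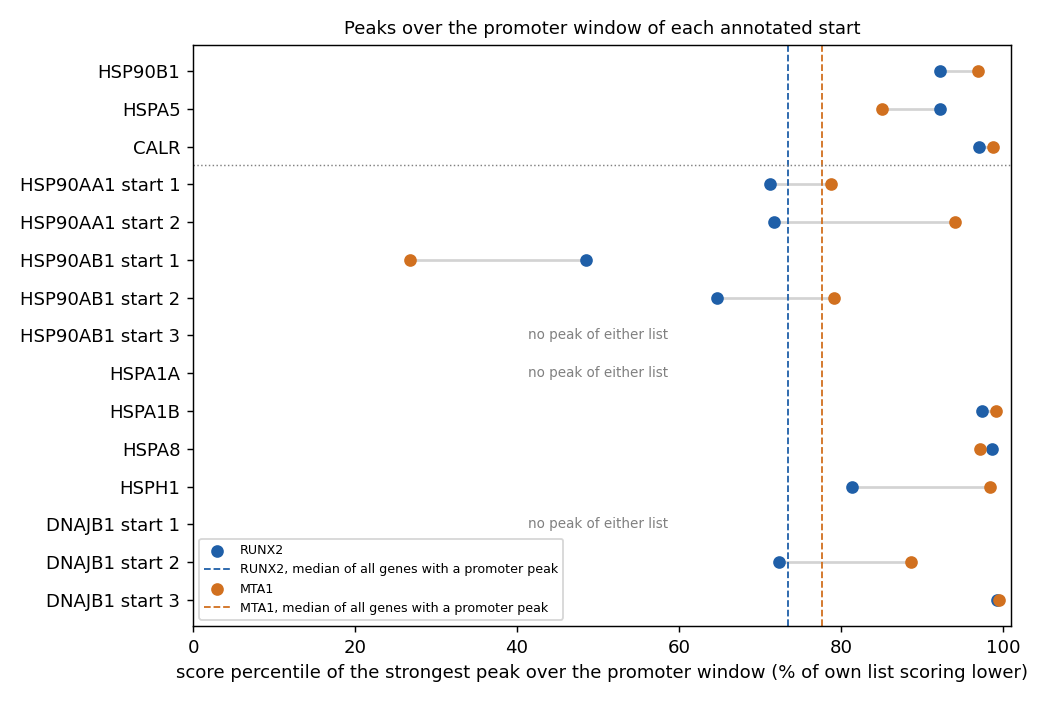
Score percentile of the strongest RUNX2 (blue) and MTA1 (orange) peak over the promoter window of each of the 15 annotated starts of the 10 members, with a grey bar joining both lists and dashed lines at the medians of all protein-coding genes with a promoter peak (73.5 for RUNX2, 77.7 for MTA1). The ER members stand above the dotted line with percentiles from 85.1 to 98.7, the cytosolic starts range from 26.8 to 99.5, and 3 starts had no peak of either list.

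Among the ER members, HSP90B1, the HSP90 of the ER, had 5 RUNX2 and 6 MTA1 peaks. Its promoter carried a RUNX2 peak from 103930010 to 103930471 on chromosome 12 (score 26.5, percentile 92.2) and an MTA1 peak from 103930010 to 103930355 (score 34.8, percentile 96.9), which began at the same base. Both ER stress elements printed above for this gene lay inside both peaks. A weaker group lay about 0.7 kb upstream, where a RUNX2 peak of percentile 47.2 overlapped 2 MTA1 peaks of percentiles 21.6 and 46.4. The remaining peaks had lower percentiles than the promoter pair. An isolated RUNX2 peak centred 4943 bp upstream had percentile 42.0, an MTA1 peak inside the gene had 21.8, and 2 overlapping pairs beyond the far end of the gene, inside the neighbour UQCC6, had RUNX2 percentiles of 64.5 and 64.1 and MTA1 percentiles of 68.1 and 9.15.

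HSPA5, the HSP70 of the ER and the sensor that holds the unfolded protein response in check, had 3 RUNX2 and 3 MTA1 peaks that formed 3 overlapping pairs. The promoter pair ran from 125241299 to 125241972 on chromosome 9 for RUNX2 (percentile 92.2) and from 125241280 to 125241747 for MTA1 (percentile 85.1), and its ER stress element lay inside both. It was the only ER promoter at which the RUNX2 percentile was the higher of both. The strongest MTA1 peak of the gene was not at the start but about 2.1 kb upstream, from 125243276 to 125243572 (percentile 93.6), over a RUNX2 peak of percentile 82.9. The last pair, at percentiles 81.1 for RUNX2 and 91.9 for MTA1, lay inside RABEPK, within 184 bp of the end of that neighbour. A long non-coding RNA, HSPA5-DT, starts 313 bp upstream of HSPA5 in the opposite direction, so signal from both starts cannot be told apart.

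CALR, the lectin chaperone and calcium-binding protein of the ER, had 4 peaks of each list. Its promoter had the strongest pair of the ER members, a RUNX2 peak from 12938231 to 12938626 on chromosome 19 (score 39.6, percentile 97.0) and an MTA1 peak from 12937941 to 12938644 (score 44.3, percentile 98.7). The RUNX2 peak lay wholly inside the MTA1 peak and filled 56.2% of it, and the ER stress element lay inside both. FARSA, a neighbour, encodes a subunit of phenylalanyl-tRNA synthetase. Among the other peaks of CALR, a pair over a boundary of FARSA had percentiles of 50.7 for RUNX2 and 67.0 for MTA1. An unpaired MTA1 peak near GADD45GIP1 had 39.9. These are not all of the peaks counted for CALR, so they do not give the range of its peaks away from the start.

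**Figure D2:**
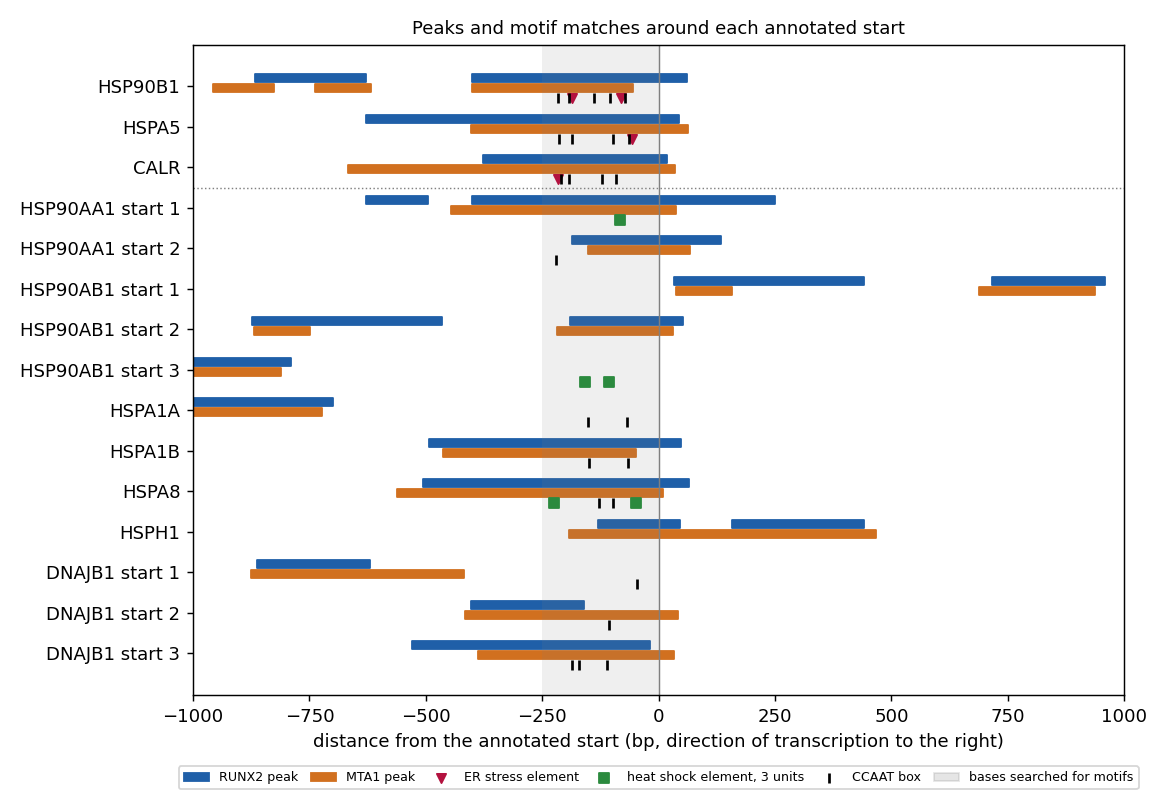
RUNX2 (blue bars) and MTA1 (orange bars) peaks drawn to scale within 1000 bp of each annotated start of the 10 members, with transcription to the right and matches to the ER stress element (red triangles), the heat shock element of 3 units (green squares) and the CCAAT box (black ticks) in the 250 searched bases (grey). All 4 ER stress elements of HSP90B1, HSPA5 and CALR lie under peaks of both lists, as do the heat shock elements of HSPA8 and of HSP90AA1 start 1, while those of HSP90AB1 start 3 lie under none.

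At the cytosolic HSP90 genes, the RUNX2 percentile of every promoter peak was below that of the 3 ER members, while the MTA1 percentiles overlapped. HSP90AA1, the stress-inducible HSP90, had 4 RUNX2 and 2 MTA1 peaks. At the start nearer to the end of the gene (position 102087044 on chromosome 14), the RUNX2 peak from 102086795 to 102087444 had percentile 71.2 and the MTA1 peak from 102087007 to 102087489 had 78.8. The heat shock element printed above lay inside both. At the far start (position 102139749), the percentiles were 71.7 for RUNX2 and 94.1 for MTA1, a difference of 22.4 that was the widest in favour of MTA1 among the 12 promoter windows of members with both peaks. That window also holds the start of WDR20, which runs in the opposite direction from 148 bp upstream, so the peaks there may belong to either gene and cannot be told apart. The other 2 RUNX2 peaks, of percentiles 17.1 and 55.8, had no MTA1 partner.

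HSP90AB1, the constitutive HSP90, had 5 RUNX2 and 4 MTA1 peaks and 3 annotated starts. At the first start (position 44246194 on chromosome 6), the percentiles were 48.5 for RUNX2 and 26.8 for MTA1, the lowest of any member promoter with peaks. At the second start (44247101), they were 64.7 and 79.1. The third start (44247943), whose window holds 2 heat shock elements of 3 units, had no peak of either list. The strongest peaks counted for this gene lay far from it. A RUNX2 peak from 44237249 to 44237757 (percentile 98.2) and an MTA1 peak from 44237243 to 44237803 (percentile 98.9) were centred about 8.7 kb upstream and 3107 bp from the end of SLC29A1, a nucleoside transporter gene, so the 10 kb window alone assigned them to HSP90AB1. Near the other end of the gene, the peaks in or near SLC35B2 had percentiles of 18.8 and 5.87 for RUNX2 and 34.9 for MTA1.

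The inducible HSP70 genes HSPA1A and HSPA1B, which lie side by side on chromosome 6, differed although their promoters are 94.4% identical. The HSPA1B promoter had a RUNX2 peak from 31827245 to 31827787 (score 41.9, percentile 97.4) and an MTA1 peak from 31827275 to 31827690 (score 47.3, percentile 99.1). HSPA1A had no peak of either list over its promoter window. Its nearest pair was centred about 1 kb upstream, from 31814303 to 31814844 for RUNX2 (percentile 93.7) and from 31814367 to 31814821 for MTA1 (percentile 74.4), inside HSPA1L, a testis HSP70 gene that starts 260 bp from HSPA1A in the opposite direction. How reads that fit both copies were placed is not given in the sources used here, so the peak at HSPA1B and its absence at HSPA1A are uncertain. Between the genes, a RUNX2 peak of percentile 78.5 overlapped an MTA1 peak of 88.7, and a RUNX2 peak of 71.3 had no partner. The remaining peaks were a pair over a boundary of LSM2 (percentiles 91.2 and 89.2), counted for HSPA1A, and an unpaired MTA1 peak of 45.7 beyond HSPA1B. As the genes are close, 3 RUNX2 and 2 MTA1 peaks were counted for both, among them the HSPA1B promoter peaks.

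HSPA8, the constitutive HSP70, had the simplest pattern, with 1 peak of each list, both at its start. The RUNX2 peak ran from 123062071 to 123062641 on chromosome 11 (score 50.6, percentile 98.6) and the MTA1 peak from 123062127 to 123062698 (score 35.7, percentile 97.1). They shared 515 bp of their 571 and 572 bp. Both heat shock elements of this promoter, at -230 to -218 and -55 to -43, lay inside both peaks.

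DNAJB1, the J-domain partner of HSP70, had the most peaks, 8 of RUNX2 and 7 of MTA1, and the highest scores of the 10 genes. At its farthest upstream start (position 14529271 on chromosome 19), the RUNX2 peak from 14529289 to 14529800 scored 58.7 (percentile 99.2) and the MTA1 peak from 14529239 to 14529658 scored 53.2 (percentile 99.5). Starts of TECR, a fatty acid elongation gene, lie 289 and 323 bp upstream in the opposite direction, and both peaks lay inside TECR as well, so they cannot be assigned to DNAJB1 alone. At the middle start, the percentiles were 72.4 for RUNX2 and 88.6 for MTA1. There the MTA1 peak covered both pairs of heat shock units printed above, at -77 to -70 and -47 to -40, and the RUNX2 peak, which ended farther upstream, covered neither. The start nearest to the end of the gene had no peak over its window. Strong pairs away from the starts lay about 1.7 kb upstream of the middle start (percentiles 93.3 and 95.5) and beyond the end of the gene, from 14505860 to 14506328 for RUNX2 (percentile 90.1) and from 14505855 to 14506413 for MTA1 (percentile 97.3).

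HSPH1, the HSP110 nucleotide exchange factor, had 2 RUNX2 and 2 MTA1 peaks. At its start on chromosome 13, a broad MTA1 peak from 31161920 to 31162580 (661 bp, score 42.3, percentile 98.4) spanned 2 narrower RUNX2 peaks, from 31162342 to 31162519 (percentile 81.3) and from 31161947 to 31162231 (percentile 60.1). The RUNX2 peak over the promoter filled 26.9% of the MTA1 peak. Its promoter had the lowest GC content of the 15 member windows (50.4%, against a median of 64.8% for members and 62% for all windows) and no match to any of the motifs searched. An unpaired MTA1 peak of percentile 29.7 lay 5230 bp upstream. A long non-coding RNA also starts 272 bp upstream of HSPH1 in the opposite direction.

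**Figure D3:**
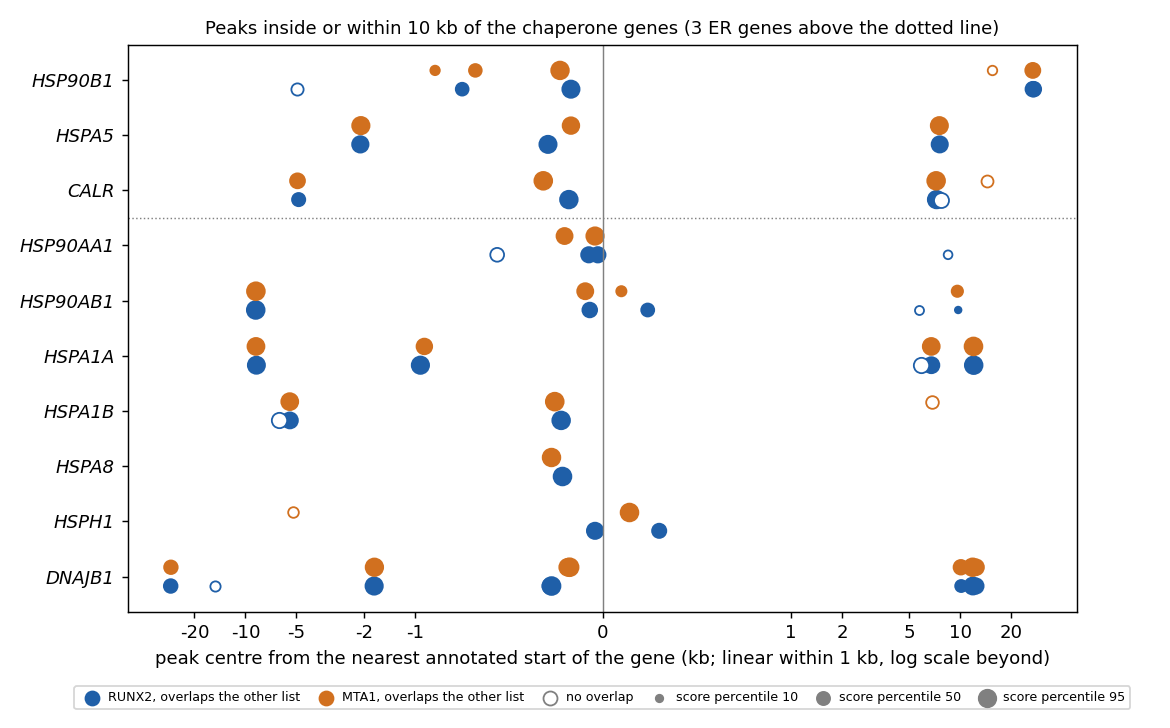
Distance of the centre of every RUNX2 (blue) and MTA1 (orange) peak from the nearest annotated start of its member gene, in kb on an axis that is linear within 1 kb and logarithmic beyond. Filled circles overlap a peak of the other list, open circles do not, and the area grows with the score percentile; the large filled circles gather just upstream of the starts and at a few sites several kb away.

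The contrast between compartments depended on which peaks were counted for each member. Peaks of both lists covered a promoter window at 3 of 3 ER members (interval 29.2 to 100%) and 6 of 7 cytosolic members (42.1 to 99.6%), and reached a percentile of 90 in both lists at 2 of 3 (9.43 to 99.2%) and 3 of 7 (9.90 to 81.6%). These intervals overlap almost entirely. The median promoter percentile was 92.2 for RUNX2 and 96.9 for MTA1 in the ER members and 89.4 and 97.8 in the cytosolic members. For the strongest peak within 10 kb, the medians were 92.2 and 96.9 in the ER members and 97.4 and 98.9 in the cytosolic members. Within 3 kb, the cytosolic medians were 93.7 and 97.1 and the ER medians kept their values, so the order stayed. With peaks kept only where the nearest end of a protein-coding gene was that of the member, the cytosolic medians were 81.3 and 97.1. The ER medians again kept their values, so for RUNX2 the order of the compartments turned. The promoter percentiles of the 3 ER members spanned 92.2 to 97.0 for RUNX2 and 85.1 to 98.7 for MTA1. Those of the 6 cytosolic members spanned 64.7 to 99.2 and 79.1 to 99.5. A range tends to widen with the number of genes, so 3 against 6 genes cannot show a difference in spread. The values of the 2 compartments overlapped in both lists.

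The peaks of both lists coincided more often at these genes than over the whole lists. Of 37 distinct RUNX2 peaks at the members, 30 shared at least 1 bp with an MTA1 peak (81.1%), against 45.4% of all RUNX2 peaks. Of 34 MTA1 peaks, 30 overlapped a RUNX2 peak (88.2%), against 65.5% of all MTA1 peaks. The whole lists are an unlike set. Peaks over promoter windows were 12 of the 37 RUNX2 and 12 of the 34 MTA1 peaks, against 6941 of 61700 and 7355 of 42683. Overlap among peaks of like place or score was not compared. A percentile of 90 or above, which 10% of each list has by construction, was reached by 12 of the 37 RUNX2 (32.4%) and 13 of the 34 MTA1 peaks (38.2%). The unpaired peaks had lower medians, although the lowest peak of each list at the members, at percentiles 5.87 for RUNX2 and 9.15 for MTA1, was paired. The 7 unpaired RUNX2 peaks had percentiles from 17.1 to 71.3 (median 42.0), against a median of 79.8 for the paired ones, and the 4 unpaired MTA1 peaks had 21.8 to 45.7, against a median of 88.6. No unpaired peak lay over a member's promoter window. In cytosolic members 20 of 25 RUNX2 and 19 of 21 MTA1 peaks were paired, and in ER members 10 of 12 and 11 of 13.

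Peaks at the starts were wide and lay slightly upstream. The 12 RUNX2 and 12 MTA1 peaks over promoter windows had median widths of 436 and 440 bp, against 255 and 289 bp for all promoter peaks, and median percentiles of 86.8 and 95.5, against 64.5 and 67.5 for the peaks of the members elsewhere. Their centres lay upstream of the start at 11 of 12 member windows for RUNX2 and 10 of 12 for MTA1. The medians were -175 and -182 bp. Over all genes, each pairing of a window with a peak was counted. There the shares were 80.7% of 8529 pairings for RUNX2 and 81.0% of 9154 for MTA1 (medians -92 and -89 bp). The centres of the ER members lay from -292 to -170 bp for RUNX2 and from -317 to -170 bp for MTA1. Those of the cytosolic members lay from -281 to 238 bp and from -276 to 138 bp. The centres of HSPA1B, HSPA8 and DNAJB1 lay inside the ER ranges in both lists, and those of HSP90AB1 and HSPH1 lay outside in both. At HSP90AA1, only an MTA1 centre at -204 bp lay inside. The ER members have fewer windows, and a range tends to widen with their number, so no difference in spread can be shown. The MTA1 percentile was the higher of both at 9 of the 12 member windows with both peaks, against 65.4% of all 7449 such windows. The exceptions were HSP90AB1 at its first start (lower by 21.8), HSPA5 (lower by 7.14) and HSPA8 (lower by 1.48).

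The nearest end of a protein-coding gene was that of the member for 26 of the 37 RUNX2 and 23 of the 34 MTA1 peaks. An end here is either boundary of a gene, its start or its far end. Of the 37 RUNX2 peaks, 16 were centred within 1 kb of a start of their member, 7 lay away from it but within 1 kb of an end of another protein-coding gene, and 14 had neither nearby. Of the 34 MTA1 peaks, the counts were 15, 6 and 13. The start of another gene lay within 500 bp of 5 of the 15 member starts, those of DNAJB1, HSP90AA1, HSPA1A, HSPA5 and HSPH1 described above, against 20.5% of all windows. Over all windows, peaks of both lists were found in 59.4% of those with such a neighbour and 26.9% of those without. At the members the share was 80% with and 80% without. No other start was annotated within 500 bp of HSPA1B, HSPA8, CALR or HSP90B1, 4 of the 5 members with both promoter percentiles at 90 or above.

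Other chaperone genes also had paired promoter peaks in most cases, and the share with high scores varied between lists. Of 29 further cytosolic chaperones, co-chaperones and heat shock factors, 29 had a RUNX2 and 29 an MTA1 peak within 10 kb. Of the 25 with a promoter window, 21 had both peaks over it (84%) and 4 had both at a percentile of at least 90 (16%). The strongest were STIP1, the adaptor between HSP70 and HSP90 (percentiles 98.4 for RUNX2 and 99.3 for MTA1), HSF2, a heat shock factor (97.8 for RUNX2), and CDC37, which brings kinases to HSP90 (98.8 for MTA1). HSPA1L and HSPB8 had no promoter peak.

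Of 30 further ER chaperones, folding enzymes and unfolded protein response genes, 28 had a RUNX2 and 30 an MTA1 peak within 10 kb, and 24 of the 29 with a window had both promoter peaks (82.8%), 6 of them both at 90 or above (20.7%). CANX, the membrane-bound partner of calreticulin in glycoprotein folding, was strong in both lists (98.5 and 99.2), P4HB, a protein disulfide isomerase, was high for RUNX2 (97.0), and EIF2AK3, the stress sensor kinase PERK, was high for MTA1 (99.6 for its strongest peak within 10 kb and 97.0 at the promoter). ATF4, ATF6, SERPINH1 and TRIB3 had no promoter peak of either list. Of 6 mitochondrial chaperone genes, 5 had a window, 4 had both promoter peaks (80%) and 3 had both at 90 or above (60%). HSPA9, the mitochondrial HSP70, led both lists (95.3 and 99.1). GRPEL1, which has no promoter window in the table, came next in both (92.2 for RUNX2 and 98.9 for MTA1 within 10 kb). Both promoter peaks were thus found at 80% or more of the genes in all 3 lists and among the members, against 40.7% of all genes, and the members' 50% at high scores lay between the mitochondrial and the other lists.

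**Figure D4:**
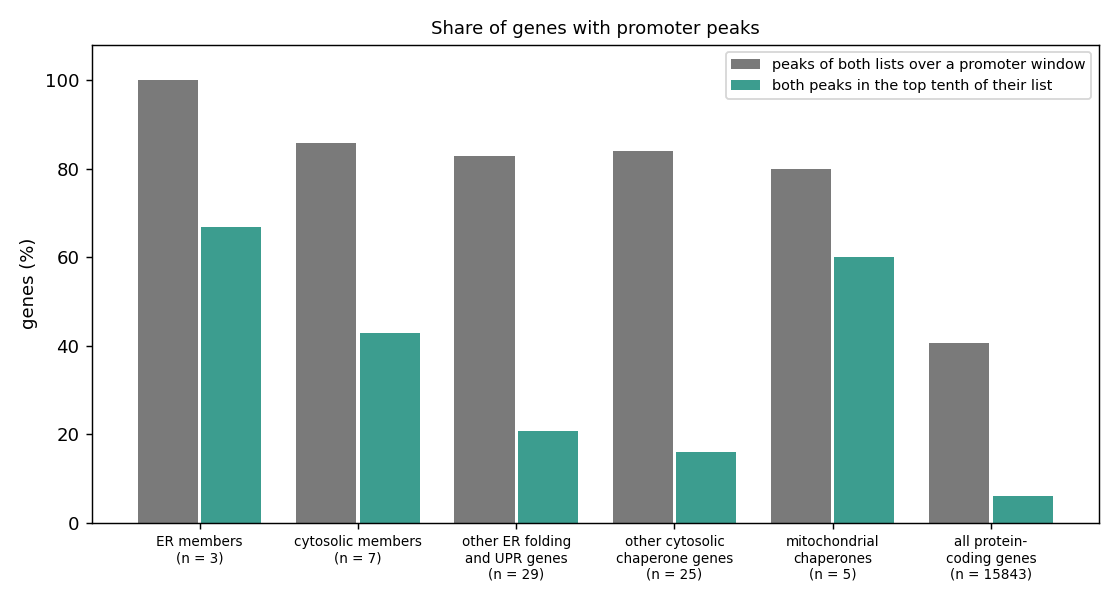
Share of genes, in percent of those with a promoter window, with peaks of both lists over a window (grey) and with both at a score percentile of at least 90 (green), for the ER members, the cytosolic members, 3 further chaperone lists and all protein-coding genes. The grey bars stand at 80% or more in every chaperone list and at 40.7% over all genes, while the green bars run from 16% to 66.7% in the chaperone lists and stand at 6.00% over all genes.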

How the data were processed

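The study's methods name CUT&Tag of MDA-MB-231 cells, although the labels describe adaptor ligation to precipitated DNA. There was 1 library per antibody (RUNX2, MTA1). The authors deposited, for each library, a list of peaks with chromosome, start, end and a score that is not a read count and whose scale was not given. It was used for ranks within its own list only. The submitters' processing notes name CASAVA 1.4, Bowtie 0.12.8, MACS, MACS2 and the build hg19, with no role or order. However, 271 RUNX2 and 226 MTA1 peaks ran past the hg19 ends of chromosomes 17, 18 and 20, so the positions, which are printed 1-based, were read as GRCh38. Thresholds, control library and handling of reads that fit several places are not given in the sources used here, and depth per library is unknown.

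Peaks within 10 kb of a gene, or sharing at least 1 bp with a promoter window (250 bases before to 50 after a RefSeq GRCh38.p14 start), were counted with Python 3.11.15, pandas 2.3.3 and scipy 1.17.1. Exons and introns were not resolved. Overlap counting was tested on simulated peaks. All members are named, with the 2 highest-scoring genes of each further list and library and the genes without promoter peaks. Members and lists were chosen with earlier results of these data known. Other windows, score limits, overlaps, merging and gene assignments were tried. Peaks at 1 neighbouring gene are not reported here.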

Additional observations from a re-analysis of the deposited data

How the results depend on the processing

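Members with a RUNX2 peak, an MTA1 peak or an overlapping pair numbered 8 to 10 of 10 under every alternative run. Among the 10000 peaks with the highest scores, HSP90AA1 and HSPH1 had no RUNX2 peak, and when 50% or more of each peak had to be shared 9 members had a pair. The number of peaks moved with the window. RUNX2 peaks fell from 37 to 21 at 1 kb and 12 among the 10000 highest, and MTA1 peaks from 34 to 21 at 3 kb, 19 at 1 kb and 19 among the 10000 highest, as each of these keeps fewer peaks by construction. The median percentile of the strongest peak per cytosolic member moved from 97.4 to 93.7 for RUNX2 and from 98.9 to 97.1 for MTA1 at 3 kb, to 81.3 and 97.1 with only peaks nearest to an end of the member, and to 97.8 and 98.7 with HSPA1A and HSPA1B counted as 1 locus. The ER medians of 92.2 and 96.9 kept their values under all 3. No paired analysis was possible because each antibody had 1 library. The depth behind the peaks is unknown.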

Other observations

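The 22 promoter windows with an ER stress element carried peaks of both lists in 16 cases (72.7%), against 33.6% of all 22199 windows. Windows with a CCAAT box carried both in 42.3%, those with a heat shock element of 3 units in 27.2% (22 of 81), those with 2 facing heat shock units in 26.8% and those with the RUNX core TGTGGT in 27.0%. The members account for 3 of the 22 windows and 3 of the 81. These shares are descriptions over windows that can share a gene, and were not tested.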
